A study of Drosophila melanogaster with 2 samples.

Results

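The genes described here are 10 Drosophila melanogaster genes for the proteins that shape mitotic chromosomes: the 5 condensin I genes SMC2, glu, barr, Cap-D2 and Cap-G, the topoisomerase II gene Top2, the cohesin genes SMC1, SMC3 and vtd, and the cohesin loader gene Nipped-B. They were chosen by name for this role, and all 10 were found among the 13968 protein-coding genes annotated on the chromosome arms. For each gene, the E2f2 peaks with a summit no more than 500 bp from a transcription start site (TSS) of the annotation were read from the peak lists. A gene with such a summit is called bound below, and this word says nothing about its expression.

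The samples were 2 biological replicates of a single group: whole embryos aged 0 to 24 h from a transgenic fly strain that carries an insertion expressing E2f2-eGFP, a fusion of E2f2 to a green fluorescent protein. The sample descriptions state precipitation with an antibody against GFP, while the antibody field of the labels names E2f2. Both replicates share 1 donor strain in the labels, and chromatin was sheared by sonication to 200 to 800 bp. There was no second genotype, stage or treatment to compare, so the values below are descriptions and no test was made. In whole embryos, binding in a small share of cells and weak binding in most cells cannot be told apart.

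Condensin is a ring of a pair of SMC ATPases closed by a kleisin subunit, with further subunits that bind DNA, and it folds chromatids into compact mitotic chromosomes. Cohesin is a related ring that holds sister chromatids together until anaphase and is put onto DNA by a loader, and topoisomerase II passes DNA strands through each other so that entangled sisters can part. E2f2 is the E2F protein of flies known mainly as a repressor. It acts with Dp, with RB-family proteins and within the dREAM complex, and genes of the cell cycle are among its known targets.

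E2f2 peaks lay at the start sites of 7 of the 10 genes in the main list, the conservative thresholded list made from both replicates, against 40.7% of all protein-coding genes (5681 of 13968). All 5 condensin genes and Top2 were bound, whereas of the cohesin genes among the 10, SMC1 alone was bound and the loader gene Nipped-B was not. The list of replicate 1 held peaks at 7 of the 10, against 33.5% of all genes, and the list of replicate 2 at 8 of the 10, against 42.1%. The same 7 genes were bound in both replicate lists, against 32.2% of all genes. SMC3 was the gene that replicate 2 added, and it was also the gene added by a larger list made from both replicates, in which 8 of the 10 were bound, against 44.1% of all genes.

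Peaks are described by the signal value that the peak caller gave and by the irreproducible discovery rate (IDR), which measures how poorly a peak's rank held between rankings. The main list had 7312 entries, the larger list 8752, the list of replicate 1 had 5002 and that of replicate 2 had 8250. Every entry of these lists had a −log10 IDR of at least 2 in the matching list of all ranked peaks. The main and the larger list gave each bound member the same signal value. The signals of the replicate lists were compared within each list alone, since what they are relative to is not known. Coordinates are those of build dm6, counted from 1.

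SMC2 and glu encode the paired SMC ATPases of condensin, glu being the fly SMC4. SMC2 (FBgn0027783) had the highest signal of the 10 genes, 367 in replicate 1 and 510 in replicate 2. In the main list its peak (chr2R:14852434-14852970, intergenic) had a signal of 874, rank 826 of 7312, above 84.4% of all bound protein-coding genes. The summit lay 47 bp upstream of the TSS, and the summits of the replicates were 16 bp apart. A second summit of the same region, with a signal of 147, lay 246 bp upstream, nearer to the start of the neighbouring gene Ercc1. In replicate 1 the entry there was below the threshold, with a signal of 33.0. Replicate 2 listed a summit 268 bp upstream with a signal of 2.31.

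The glu gene (FBgn0015391) had a signal of 254 in replicate 1 and 401 in replicate 2. Its main-list peak (chr2L:16738177-16738640, intergenic) had a signal of 654, rank 1144, above 77.9% of all bound genes. Its summit lay 35 bp upstream of the TSS. SMC2 and glu were thus the highest of the 10 in every list, and both had a −log10 IDR of 5, the highest value that the lists give, in replicate 1, with 4.94 and 4.75 in replicate 2.

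The bases around the glu start are shown because glu, like SMC2, combined a match to the E2F core with a match to the core of promoter motif 1, the element bound by the factor M1BP. The E2F core searched was TTNNCGC, with each N either G or C, on both strands. At glu it began 28 bp downstream of the TSS, and the motif 1 core, GGTCACAC, began 2 bp upstream. Below, the first line is chr2L:16738343-16738371, the second chr2L:16738372-16738401 and the third the 120 bases before the TSS, chr2L:16738389-16738508, all read from the RefSeq copy of the Release 6 genome on the minus strand, the strand of the gene. Capitals mark the E2F core in the first line, the motif 1 core in the second and, in the third, 2 matches to the cell cycle homology region (CHR, TTTGAA on either strand), an element bound by a dREAM subunit.
glu E2F core site: tcctattaccaTTGGCGCccgaaaaagcg
glu motif 1 core site: cacatcaagacGGTCACACtgctgatagcg
glu upstream: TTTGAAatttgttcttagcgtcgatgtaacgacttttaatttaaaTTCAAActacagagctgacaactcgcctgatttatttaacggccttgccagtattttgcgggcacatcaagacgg

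The barr gene (FBgn0014127), which encodes the kleisin that closes the condensin ring, had the lowest signal among the 7 bound genes: 49.2 in replicate 1 and 81.7 in replicate 2. In the main list its peak (chr2L:20061370-20061582) had a signal of 139.6 at rank 4389, above 23.5% of bound genes. That summit lay 88 bp upstream of barr but 36 bp from the TSS of lok, the gene of the checkpoint kinase Chk2, whose 5′ UTR it falls in. The starts of barr and lok point away from each other at a distance of 52 bp, so the peak cannot be given to either gene alone. The annotation gives barr 2 start sites. A separate summit 80 bp upstream of the start inside the gene was in the larger list, with a signal of 103.7, but not in the main list. Replicate 2 listed one 60 bp upstream of that start, with a signal of 65.1, while the entry of replicate 1 was below the threshold. An E2F core lay 28 bp from the main-list summit, the shortest such distance among the bound genes. The summit of replicate 2, 36 bp upstream of barr, lay farther from this core. The core is shown in capitals with its flanks (chr2L:20061475-20061503, minus strand).
barr E2F core site: gtgtgtaaaagTTGCCGCcttccagggat

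Cap-D2 (FBgn0039680) encodes a condensin subunit built of HEAT repeats. Its signal was 123.3 in replicate 1 and 231 in replicate 2. The main-list peak (chr3R:29675409-29675706, intergenic) had a signal of 339, rank 2059, above 60.6% of bound genes, with the summit 50 bp upstream of the TSS. The same summit lay 180 bp from the start of Bub3, a spindle checkpoint gene that is read in the other direction. The bases between both starts are shown because they hold no E2F core, yet hold at their Bub3 end a full DNA replication-related element (DRE, TATCGATA), which the factors DREF and BEAF-32 are known to bind, and close to the Cap-D2 start the DRE core ATCGAT. Both are in capitals (chr3R:29675422-29675650, plus strand, the strand of Cap-D2).
Cap-D2 upstream: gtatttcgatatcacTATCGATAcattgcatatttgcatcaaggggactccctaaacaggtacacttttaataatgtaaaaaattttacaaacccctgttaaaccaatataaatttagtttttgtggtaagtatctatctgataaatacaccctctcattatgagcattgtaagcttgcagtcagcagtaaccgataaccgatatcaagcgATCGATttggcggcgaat

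Cap-G (FBgn0259876), the other HEAT repeat subunit, stood near barr at the low end of the bound genes. It had a signal of 80.1 in replicate 1 and 95.3 in replicate 2. In the main list its peak (chr2R:13133043-13133248) had a signal of 161 at rank 3907, above 30.3% of bound genes. Its summit fell within the 5′ UTR, 50 bp downstream of the TSS, while the summits of the replicates lay 8 and 10 bp downstream. The 5 condensin genes were therefore all bound in both replicates, but with main-list signals that ran from 139.6 at barr to 874 at SMC2.

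**Figure D1:**
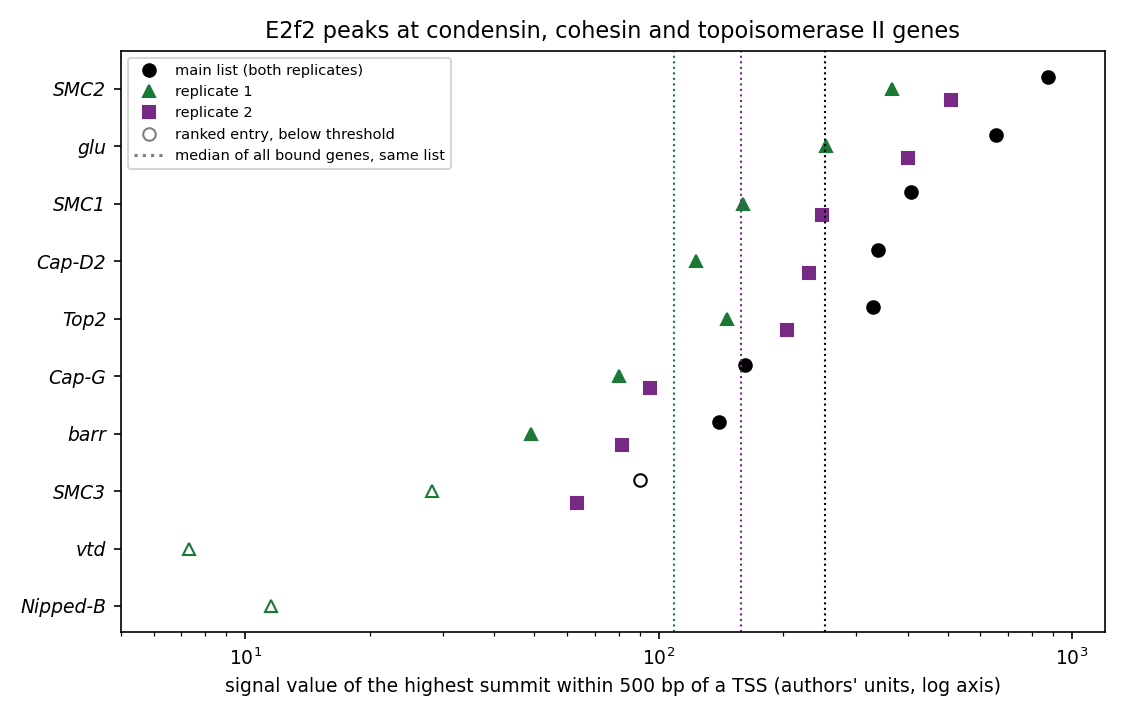
Signal value of the highest summit within 500 bp of a TSS (horizontal log axis, in the peak caller's units) for each of the 10 genes, in the main list and in each replicate. Filled points are entries of the thresholded lists, open points are ranked entries below the threshold, and dotted lines give the median of all bound genes in the list of the same colour. SMC2 and glu are highest in every list, and vtd and Nipped-B have an entry in replicate 1 alone, below the threshold.

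The order of the bound genes by main-list signal was SMC2, glu, SMC1, Cap-D2, Top2, Cap-G and barr. Replicate 2 gave the same order. In replicate 1 Top2 stood above Cap-D2 and the order was otherwise the same. With 1 value per replicate list, neighbours in this order with close values, such as Cap-D2 and Top2 in the main list, cannot be ranked against each other.

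Top2 (FBgn0284220), the single topoisomerase II gene of the fly, had a promoter signal of 146.6 in replicate 1 and 205 in replicate 2. The main-list peak (chr2L:19453425-19453731, intergenic) had a signal of 329, rank 2106, above 59.7% of bound genes. It was the gene whose summit lay farthest from its TSS among the 7, 100 bp upstream, and the summits of the replicates were 58 bp apart. A separate peak in an intron (chr2L:19452722-19453016), 626 bp into the gene, had a signal of 309.9 at rank 2215, close to that of the promoter peak. The intronic signal was 81.7 in replicate 1, below the promoter signal there, and 230 in replicate 2, above it. Top2 was alone among the 10 genes in having such a second peak inside the gene in the main list.

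Top2 was also the gene with a full DRE near its summit. The 120 bases before its TSS (chr2L:19453491-19453610, minus strand, the strand of Top2) are shown for the spacing of 3 matches in capitals: the DRE beginning 54 bp upstream, a CHR on the opposite strand 37 bp upstream and a DRE core 30 bp upstream. No E2F core lay within 100 bp of the summit.
Top2 upstream: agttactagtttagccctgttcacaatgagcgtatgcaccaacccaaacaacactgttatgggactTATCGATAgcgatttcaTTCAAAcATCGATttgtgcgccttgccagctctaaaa

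SMC1 (FBgn0040283), one of the paired ATPases of cohesin, was the only cohesin gene of the 10 members in the main list. It had a signal of 160.4 in replicate 1 and 248 in replicate 2. The main-list peak (chr3R:24058069-24058423) had a signal of 409 at rank 1741, above 66.4% of bound genes, and its summit fell on the first base of the gene. The summits of both replicates lay farther upstream, at 39 and 38 bp, 1 bp apart. The matches near the main-list summit of SMC1 included an E2F core beginning 61 bp downstream of the TSS. The others were a CHR 72 bp upstream and DRE cores 87 and 36 bp upstream. The first line below is the E2F core with its flanks (chr3R:24058337-24058365) and the second the 100 bases before the TSS (chr3R:24058187-24058286), both on the plus strand, the strand of SMC1, with the matches in capitals.
SMC1 E2F core site: aaaaaaattatTTCGCGCtcatattgtta
SMC1 upstream: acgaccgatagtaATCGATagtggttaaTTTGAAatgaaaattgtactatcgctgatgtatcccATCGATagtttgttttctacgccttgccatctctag

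SMC3 (FBgn0015615), the partner ATPase of SMC1, was on opposite sides of the threshold in the replicates. Its highest promoter entry had a signal of 28.4 and a −log10 IDR of 0.127 among the ranked peaks of replicate 1, below the threshold. In replicate 2 it had a signal of 63.4 and a −log10 IDR of 2.26, above it. The entry made from both replicates (chrX:16593357-16593866, signal 90.1) had a −log10 IDR of 0.252 in the ranking behind the main list and 2.87 in that behind the larger list. Its summit lay 173 bp upstream of SMC3 and 65 bp from the start of Ubc7, a gene of a ubiquitin-conjugating enzyme that is read in the other direction. As at barr, the position of this summit was closer to the neighbour than to the gene itself. The highest entries of the replicates had summits closer to SMC3, 37 bp upstream of it in replicate 1 and 123 bp in replicate 2.

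The bases between the starts of SMC3 and Ubc7 (chrX:16593440-16593676, minus strand, the strand of SMC3) are shown because the summit of the highest SMC3 entry lay between these starts. They hold no E2F core, and neither do the bases printed from upstream of SMC1, whose core lay downstream of its TSS. Capitals mark 3 CHR matches, on either strand, and 3 DRE cores near the SMC3 start.
SMC3 upstream: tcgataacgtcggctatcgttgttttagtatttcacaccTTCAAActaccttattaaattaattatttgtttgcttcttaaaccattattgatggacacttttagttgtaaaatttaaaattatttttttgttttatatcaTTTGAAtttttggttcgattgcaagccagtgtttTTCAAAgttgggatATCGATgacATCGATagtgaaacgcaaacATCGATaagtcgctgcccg

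The vtd gene (FBgn0260987), also known as Rad21, encodes the cohesin kleisin that separase cuts at anaphase, and Nipped-B (FBgn0026401) encodes the large subunit of the cohesin loader. Neither was bound in any of the 4 thresholded lists. At the vtd start, replicate 1 had a ranked entry with a signal of 7.32, and at the Nipped-B start one with a signal of 11.5. Both had a −log10 IDR of 0.0568, the lowest value in that list. Neither start had an entry among the ranked peaks of replicate 2 or among those made from both replicates. Counting the gene bodies and their flanks too, each gene had 5 ranked entries in replicate 1 and 0 in replicate 2.

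**Figure D2:**
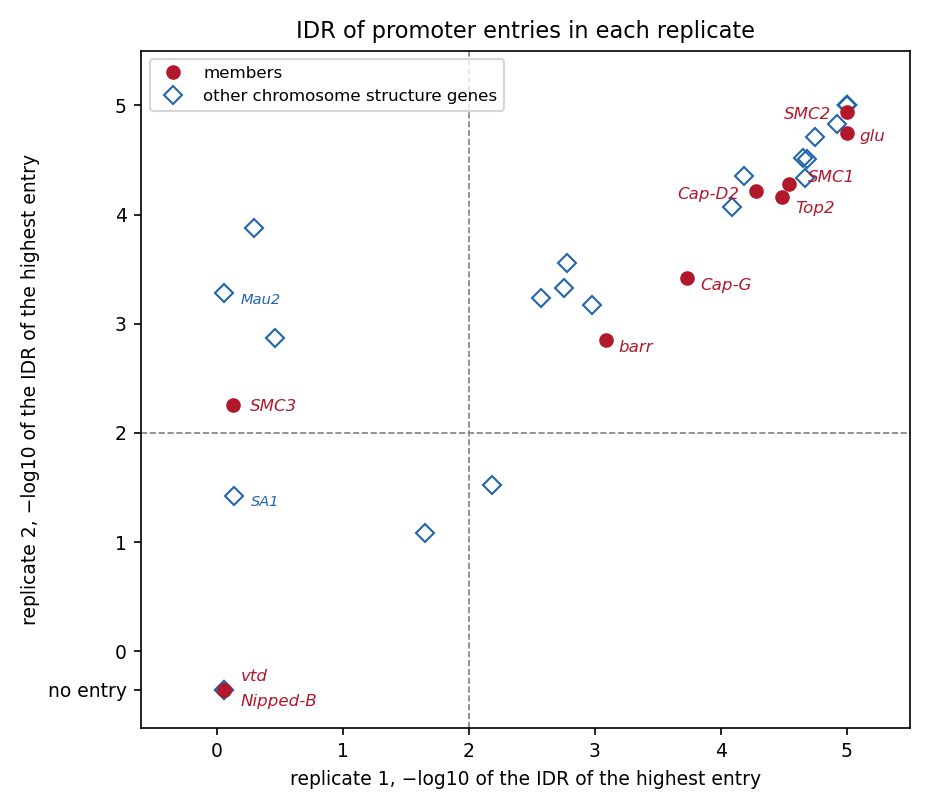
The −log10 IDR of the highest ranked promoter entry of each gene in replicate 1 (horizontal) and replicate 2 (vertical), for the 10 members (filled circles) and 23 other chromosome structure genes (open diamonds), with dashed lines at the threshold of 2. The 7 bound members lie above both lines, SMC3 lies above the line in replicate 2 alone, and vtd and Nipped-B have no entry in replicate 2.

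vtd and Nipped-B differed from the other 8 genes in their surroundings. Within 500 kb to each side, vtd had 3 other protein-coding genes, of which 0 were bound, and Nipped-B had 17, of which 1 was bound, the catenin gene p120ctn. The other 8 members had 73 to 160 such genes, of which 39.0% to 57.5% were bound. As background, both genes are known to lie in pericentromeric heterochromatin, vtd on arm 3L and Nipped-B on arm 2R.

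Ranked entries of any strength were also few there. Around vtd there were 36 in replicate 1 and 3 in replicate 2, and around Nipped-B 65 in replicate 1 and 19 in replicate 2. Around the other 8 genes there were 385 to 586 in replicate 1 and 495 to 857 in replicate 2. The nearest main-list summit was 2600 kb from the vtd start and 134 kb from the Nipped-B start. Of all 77 genes with at most 20 neighbours in such a window, a limit chosen after these values were seen, 1.30% were bound, against 41.0% of the genes with more. Whether this sparsity plays a part in the absence of peaks at vtd and Nipped-B was not tested. SMC3 was different in this respect: 50.8% of its 126 neighbours were bound.

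**Figure D3:**
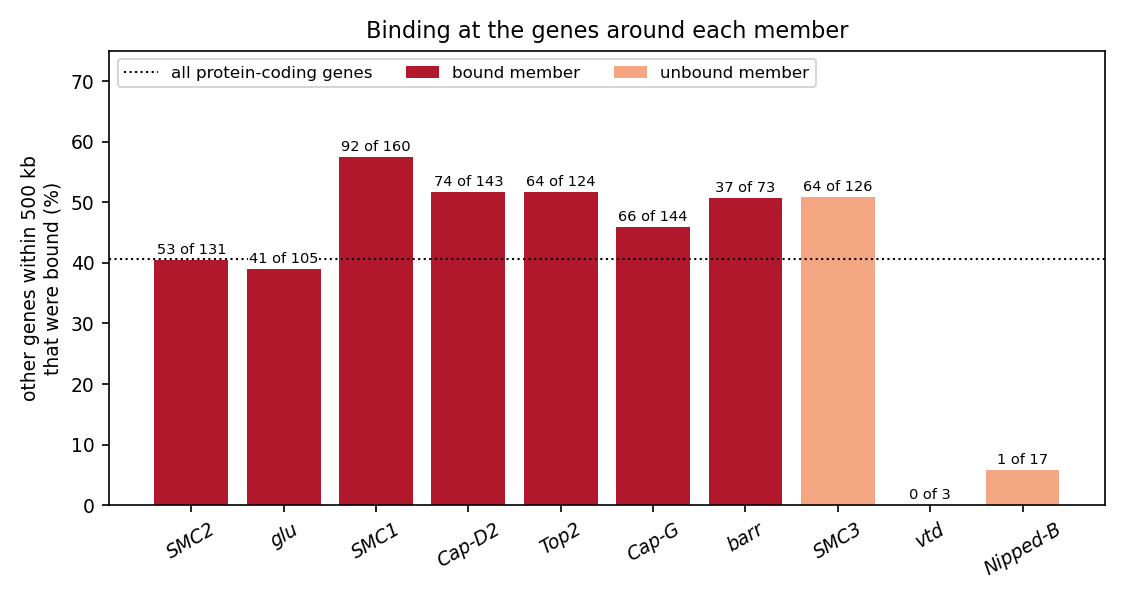
Share of the other protein-coding genes within 500 kb of each member's start that had a main-list summit (vertical axis, percent), with the counts above the bars, in dark red for bound and light red for unbound members; the dotted line is the share over all protein-coding genes, 40.7%. SMC3 stands at 50.8%, whereas vtd stands at 0 and Nipped-B at 5.88%.

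The bound members were spread over the upper and lower parts of the range of all bound genes. Their median main-list signal was 339, against 252 over all 5681 bound genes. It was 146.6 against 109 in replicate 1 and 218 against 158 in replicate 2. The members ran from 139.6 to 874 in the main list, while the middle range of all bound genes, from the lower to the upper quartile, was 144 to 576. Of the 7, SMC2 and glu lay above that range and barr just below it.

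**Figure D4:**
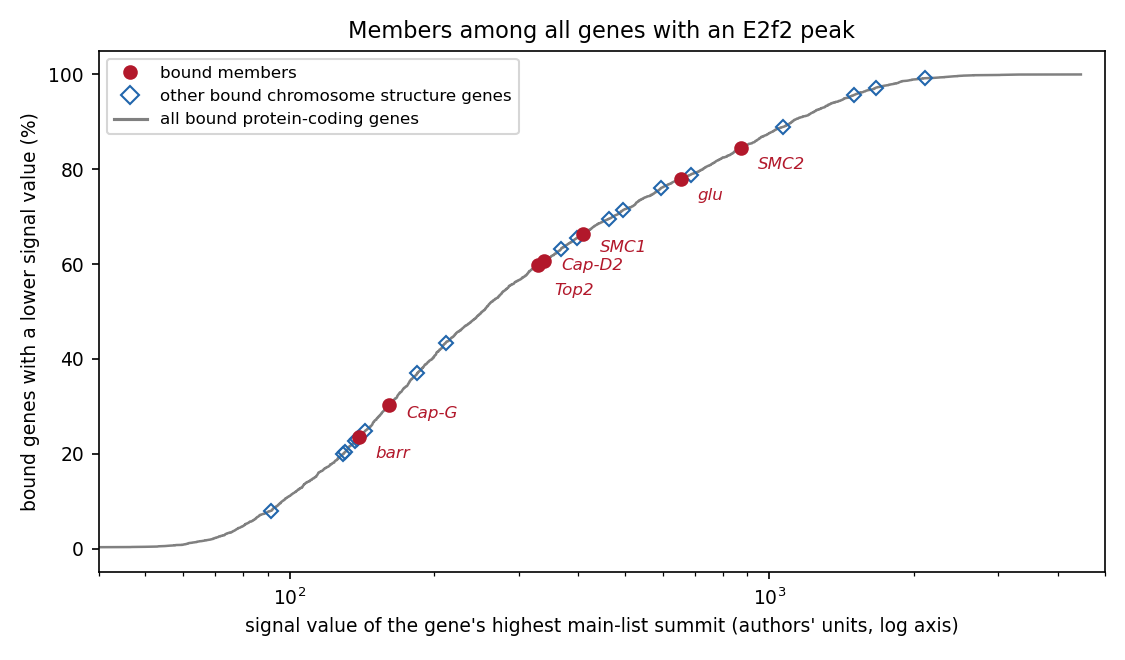
Share of all bound protein-coding genes with a lower signal value (vertical axis, percent) against the signal value of the gene's highest main-list summit (horizontal log axis). The grey line holds all bound genes, red circles the 7 bound members and blue diamonds the 18 other bound chromosome structure genes. The members range from barr at 23.5% to SMC2 at 84.4%.

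The summits sat close to the starts. All 7 lay within 100 bp of a TSS of their gene, against 54.1% of all bound genes, and the median distance was 50 bp, against 90 bp. Top2 lay exactly at the limit of 100 bp, and its summit in replicate 2 lay 120 bp from the TSS. Upstream placement was seen at 5 of the 7, with Cap-G and SMC1 as the exceptions, against 86.3% of all bound genes. A summit is the highest point of a profile of sheared fragments, so gaps such as those between the replicates at Top2 and barr (58 and 64 bp) limit how finely these positions can be read.

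**Figure D5:**
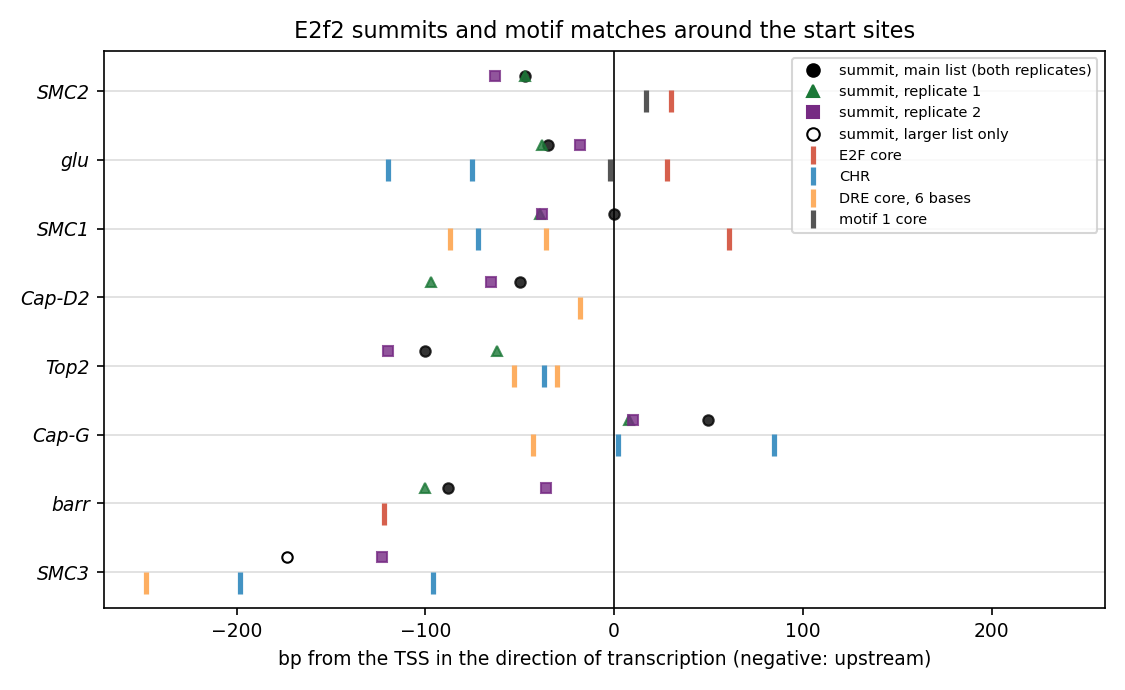
Positions of the highest summit in the main list and in each replicate (symbols above each line) and of motif matches within 100 bp of the main-list summit (coloured bars below each line; for SMC3, the larger list), in bp from the TSS in the direction of transcription. The E2F cores of SMC2, glu and SMC1 lie downstream of the TSS, 30, 28 and 61 bp, and that of barr lies 122 bp upstream.

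Matches were counted within 100 bp of the main-list summit. The E2F core was found at 4 of the 7 bound members, SMC2, glu, SMC1 and barr. It was found at 17.3% of the 5148 main-list summits at protein-coding start sites. Within 50 bp it was found at 1 of the 7, barr, against 10.7%. A longer form, with a further T before the core, was found at SMC2 and SMC1, against 8.82%. The motif 1 core was found at SMC2 and glu, 2 of 7, against 11.1%. CHR matches were found at 4 of 7, Cap-G, SMC1, Top2 and glu, against 41.6%. The DRE core was found at Cap-D2, Cap-G, SMC1 and Top2, 4 of 7, against 28.9%, and the full DRE, which contains it, at Top2 alone, against 13.6%. SMC1 was thus the one member with both an E2F core and a DRE core near its main-list summit. Its E2F core, and the longer form there, ran past 100 bp from the summits of both replicates. Counting SMC1 for either therefore depends on the main-list summit. A match is a run of letters and not a measured site, and whether these shares differ from those of all summits was not tested.

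The promoters of all 10 genes, taken from 250 bp before to 50 bp after the gene start, include those without a peak. An E2F core was found in 3 of the 10, SMC2, glu and barr, against 14.1% of 13945 promoters of genes off the Y chromosome, and in none of SMC3, vtd and Nipped-B. The full DRE was found in Cap-D2, Top2 and vtd, against 9.37%. CHR matches were found in 6 of the 10, among them Nipped-B and SMC3, against 40.8%. Unbound genes of the set therefore carried CHR or DRE letters too.

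Most of the 10 genes lay head to head with another gene. In 8 of 10, all but vtd and Nipped-B, a protein-coding gene on the other strand started within 1000 bp and pointed away, against 36.2% of all protein-coding genes. Over all genes with such a neighbour, 66.6% were bound. Of the 7 bound members, 4 shared 1 highest summit with their neighbour: SMC2 with Ercc1, a subunit of a DNA repair nuclease whose start lay 288 bp away, glu with the chitin deacetylase-like gene ChLD3 at 462 bp, barr with lok, and Cap-D2 with Bub3 at 230 bp. Shared summits were not particular to the members, since all 5681 bound genes had 5148 main-list summits at their starts. The share of bound genes with a shared highest summit was not counted. Cap-G and the uncharacterised CG13326, 687 bp apart, had a summit each, with a signal of 161 at Cap-G and 232 at CG13326. SMC1 and the heat shock gene Hsp68, 977 bp apart, also had a summit each, with a signal of 409 at SMC1 and 121 at Hsp68. CG10026, 766 bp from Top2, was not bound.

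The related genes of chromosome structure were taken from a list of 23, which covers condensin II, cohesin regulators, separase and its partners, SMC5 and SMC6, other topoisomerases and meiotic cohesion factors. In the main list 18 of the 23 were bound, against 40.7% of all protein-coding genes. The counts were 16 in replicate 1, against 33.5%, and 18 in replicate 2, against 42.1%. Their median main-list signal was 382, close to that of the members. Of condensin II, the second condensin complex, Cap-D3 had a promoter signal of 494 and 3 further intronic peaks with signals of 890, 641 and 294. The signals of 890 and 641 were also the highest start-site signals of CG31915 and Cox11. Those intronic peaks therefore cannot be given to Cap-D3 alone. Cap-H2 had a signal of 144 with its summit closer to the start of the Mediator gene MED7.

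Among the genes that act on cohesin, wapl, which releases the ring from DNA, had a signal of 1069 in the main list, 372 in replicate 1 and 700.4 in replicate 2, more than any member in each of these lists. The regulator pds5 had 594 in the main list, at a summit 178 bp from its start and 100 bp from that of Mppe. Mau2, the smaller loader subunit and partner of Nipped-B, had 130.2 in the main list and 98.1 in replicate 2, and its entry in replicate 1 was below the threshold. SA1, a cohesin subunit that binds the kleisin, had 138.5 in the main list but was in neither replicate list. The acetyltransferase gene eco had 129.2, at a peak that overlapped no listed peak of replicate 2. The listed eco summit of replicate 2 lay at another start of the gene, 607 bp from that of replicate 1. SA2, a relative of SA1, was not bound in any list.

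The genes that end cohesion differed among themselves. Sse, the separase that cuts the kleisin, had a main-list signal of 1672, thr, its partner, 1499, and pim, the securin that holds separase back, 464. The shugoshin gene mei-S332, which protects centromeric cohesion, had 368. Top3alpha, a topoisomerase that works with a RecQ helicase, had 2113, the highest promoter signal of these genes and the members. Top3beta had 137.2 and Top1 211. The main-list peak of Top1 overlapped no listed peak of replicate 1. The Top1 summit listed in replicate 1 lay at another start of the gene, 3875 bp from that of replicate 2. SMC6 had 685 and its partner SMC5 184. The highest start-site signals of CG6204 and Cand1 were the same as those of SMC6 and pim. The peaks of SMC6 and pim therefore cannot be given to these genes alone. Of the meiotic cohesion genes, sunn had 397 and solo 91.3 at its promoter, ord was unbound in every list, and c(2)M, a meiotic kleisin, was listed in replicate 2 and the larger list. An intron of solo, 6500 bp into the gene, held a further main-list peak with a signal of 3021 at rank 10. The signal there was 1116 in replicate 1 and 1911 in replicate 2. The highest start-site summit of another gene, vig, had the same main-list signal of 3021, so this peak cannot be given to solo. The gene of san, an acetyltransferase needed for cohesion, was bound in the larger list alone.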

How the data were processed

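The signal value of each peak and its summit were taken from the deposited peak lists in dm6, which the labels name. Per the file records, there was a ranked and a thresholded list for each replicate, and 2 of each were made from both replicates. The −log10 IDR is the global value of the deposited ranked lists, where it is capped at 5. Not given in the sources used here are the aligner, the peak caller, read depths and what the signal is relative to, so no counting intervals could be computed. The control named in the labels was not analysed here.

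Genes came from Ensembl release 115 of BDGP6 and sequences from the RefSeq copy of that assembly, whose chromosome lengths held every peak. For each gene the highest summit within 500 bp of any TSS was taken. Python 3.11.15 with numpy 2.4.6, pandas 2.3.3 and matplotlib 3.10.9 was used, and peak assignment and motif search were tested on simulated data. The named genes are all 10 members, the 23 other genes, and neighbours that lie head to head within 1000 bp or closer to a member's summit than the member. MED7, Mppe, p120ctn, vig, CG31915, Cox11, CG6204 and Cand1 were named after their values were seen. The members and lists were chosen with earlier results of these data known. No test was made.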

Additional observations from a re-analysis of the deposited data

How the results depend on the processing

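Of 61 recomputed values, 54 stayed within the limit set for them, counts within 1.5-fold of the value reported, and 7 did not. Of the 61, 34 were counts and medians of gene sets, of which 28 stayed within the limit. The other 27 were signals of single members, of which 26 stayed within it. Those signals could hardly move, since most settings kept the same summit. A count of 7 of 10 could leave the limit only by falling. When only the 1000 main-list peaks of highest signal were kept, 1 of the 10 members was bound, SMC2, and 4 of the 23 other genes, against 7.82% of all protein-coding genes. The median signal of the bound members was 146.6 without replicate 2 and 218 without replicate 1; signals of the replicate lists were not brought to the scale of the main list. An E2F core lay within 50 bp of the main-list summit at 1 of the 7 bound members, barr, against 10.7% of all summits at start sites. The longer form lay within 100 bp of it at 2, against 8.82%. The signal of Cap-G was 232 with a window of 1000 bp, which reaches the summit at CG13326. Giving each summit of the main list to its nearest TSS alone left 6 bound members, because barr lost its main-list peak to lok. Windows of 250 and 1000 bp, the peak midpoint and the gene's 5′ end kept 7. Requiring 50% reciprocal overlap with a peak of each replicate left 5, since Cap-G in replicate 1 and barr in replicate 2 fell short. The share of all protein-coding genes bound under these rules, from the nearest TSS to the reciprocal overlap, is not given here. These counts therefore show only which members stayed. The lists without one replicate held 7 to 8 members and 16 to 18 other genes, against 33.5% to 42.1% of all protein-coding genes. Without read counts, an absent peak cannot be told apart from one that the depth did not show. No paired analysis was possible because there was 1 group and no test.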

Other observations

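Among the 23 other chromosome structure genes, dmt, which encodes a protector of cohesion, stood apart in how it was listed. Its promoter entry passed the IDR threshold in the ranked lists, with a signal of 193 and a −log10 IDR of 4.69 in replicate 1, 316 and 4.51 in replicate 2, and 511 and 4.54 in the list behind the main list. It was in none of the 4 thresholded lists used here. Of the 7493 ranked entries past the threshold behind the main list, 181 are not in the main list, and none of them lay within 500 bp of a start of the 10 members. With these entries added back, an alternative chosen after the data were seen, 7 members and 19 of the 23 other genes were bound. The share of all protein-coding genes bound with them added back is not given here.

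On reading the printed sequences, the letters CTTGCCA were seen on the strand of the gene shortly before the start of 3 members: 32 bp before glu, 14 bp before SMC1 and 16 bp before Top2. The same letters within 50 bp before the gene start were found for 0.598% of the 5681 bound protein-coding genes and for 0.459% of 13945 genes off the Y chromosome. The letters were picked because these genes share them, so the count of 3 of 10 is a description.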
